A study of Mus musculus with 8 samples.

Results

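The genes described here remove uracil from DNA or act on the gaps and mismatches that uracil leaves behind, in germinal centre B cells of the light and dark zones. They were chosen by name: Ung and Smug1, which encode uracil-DNA glycosylases; Apex1, Apex2 and Xrcc1, which act after a glycosylase in base excision repair; and Msh6, Pms2 and Exo1 of mismatch repair. These are 8 of 18193 genes that carry a symbol of their own on the array, and they are measured by 15 probe sets, with 1 to 3 per gene. All 8 genes were bright enough to test, and 13 of the 15 probe sets reached the same level.

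When activated B cells mutate their antibody genes, cytosine in DNA is deaminated to uracil. A glycosylase can cut the uracil out and leave an abasic site, which an AP endonuclease then nicks, or the U:G mismatch can be bound by mismatch repair, whose exonuclease opens a gap that is filled by an error-prone polymerase. In most cells these pathways protect the genome, whereas in germinal centres they also feed hypermutation and class switching.

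Each of the 8 samples was total RNA from germinal centre B cells of C57BL/6 mice, taken from lymph nodes 12 days after subcutaneous immunization with NP-KLH, a hapten on a carrier protein, given in alum. CXCR4 and CD83 were then used to sort B220+CD38-CD95+ cells by zone, and each zone has 4 samples, called biological replicates in the labels. The labels do not say whether animals were pooled for a sample or what their age or sex was, and no non-germinal-centre or unimmunized sample is part of the comparison. One Affymetrix mouse array was hybridised per sample. Precision is limited by this small number of arrays, and p-values cover only the spread between these samples.

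In the labels the light zone gate is CXCR4hi/CD83lo, with the opposite gate for the dark zone, which is not the usual definition. The mRNA of these genes followed the sample titles. Cd83 lay between 7158 and 7631 in the light zone arrays and between 1363 and 1624 in the dark zone arrays, and Cxcr4 was higher in the dark zone arrays (difference 0.96, SE 0.07, limma adjusted p = 5.7e-07). Zones below are those of the titles. Median intensity per array was between 27.3 and 28.1. Of 9 tested germinal centre B cell markers, Gcsam (1.48), Mybl1 (0.76) and S1pr2 (0.26) were higher in the dark zone, Fas (-0.23), which encodes the CD95 used in the sort, was higher in the light zone, and 5 did not pass. Among those 5, Ms4a1 was at 13.35 and 13.30 on the log2 scale in light and dark zone arrays. Of 12 T cell markers, 6 were too dim to test and none of the 4 tested passed, with a summed intensity of 345 to 366 in light zone arrays and 346 to 371 in dark zone arrays. Of 15 myeloid markers, 7 were too dim and 4 passed, 2 of them higher in each zone. The summed intensity of the list was 5992 to 6359 in the light zone and 3965 to 5698 in the dark zone. Ctss was by far the brightest of them, at 12.35 and 11.88 on the log2 scale in light and dark zone arrays. Lyz2 (2.98, SE 0.46) and Csf1r (0.40) were higher in the dark zone, and Ctss (-0.46) and Cd68 (-0.40) in the light zone. Of 7 plasma cell markers, Irf4 (-2.03) and Prdm1 (-1.37) were higher in the light zone and Mzb1 (0.29) and Jchain (0.15) in the dark zone, with a summed intensity of 15954 to 17645 and 17704 to 18717. Prdm1 was dim, at 5.49 and 4.13 on the log2 scale in light and dark zone arrays. Its dark zone mean lay below the level needed for the gene test. None of the 3 tested stromal markers passed, and 5 were too dim. The part of these cells in the differences below was not tested. In sorted bulk samples, fewer cells expressing a gene and less RNA per cell cannot be told apart.

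The pathway did not move as a unit between the zones. Xrcc1 and Msh6 were higher in the dark zone, and Pms2 passed as higher there by its brightest probe set only. Apex1 and Ung were higher in the light zone, and Smug1 and Apex2 did not pass. Exo1 was called higher in the light zone by its brightest probe set, but its probe sets disagree and it is given no direction. With each gene read from its brightest probe set, 6 of 8 members were called at a limma adjusted p under 0.05, where 43.9% of all 10547 genes tested were called. By direction, 3 of 8 were higher in the dark zone, against 19.1% of all genes, and 3 of 8, Exo1 among them, in the light zone, against 24.8%. The arrays of the zones did not overlap for the same 6 genes, and 41.3% of all genes tested had no overlap. The median difference of the 8 was 0.12, beside -0.01 over all genes tested. Differences are given as dark zone minus light zone on the log2 scale throughout, with the moderated standard error (SE) of limma.

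**Figure D1:**
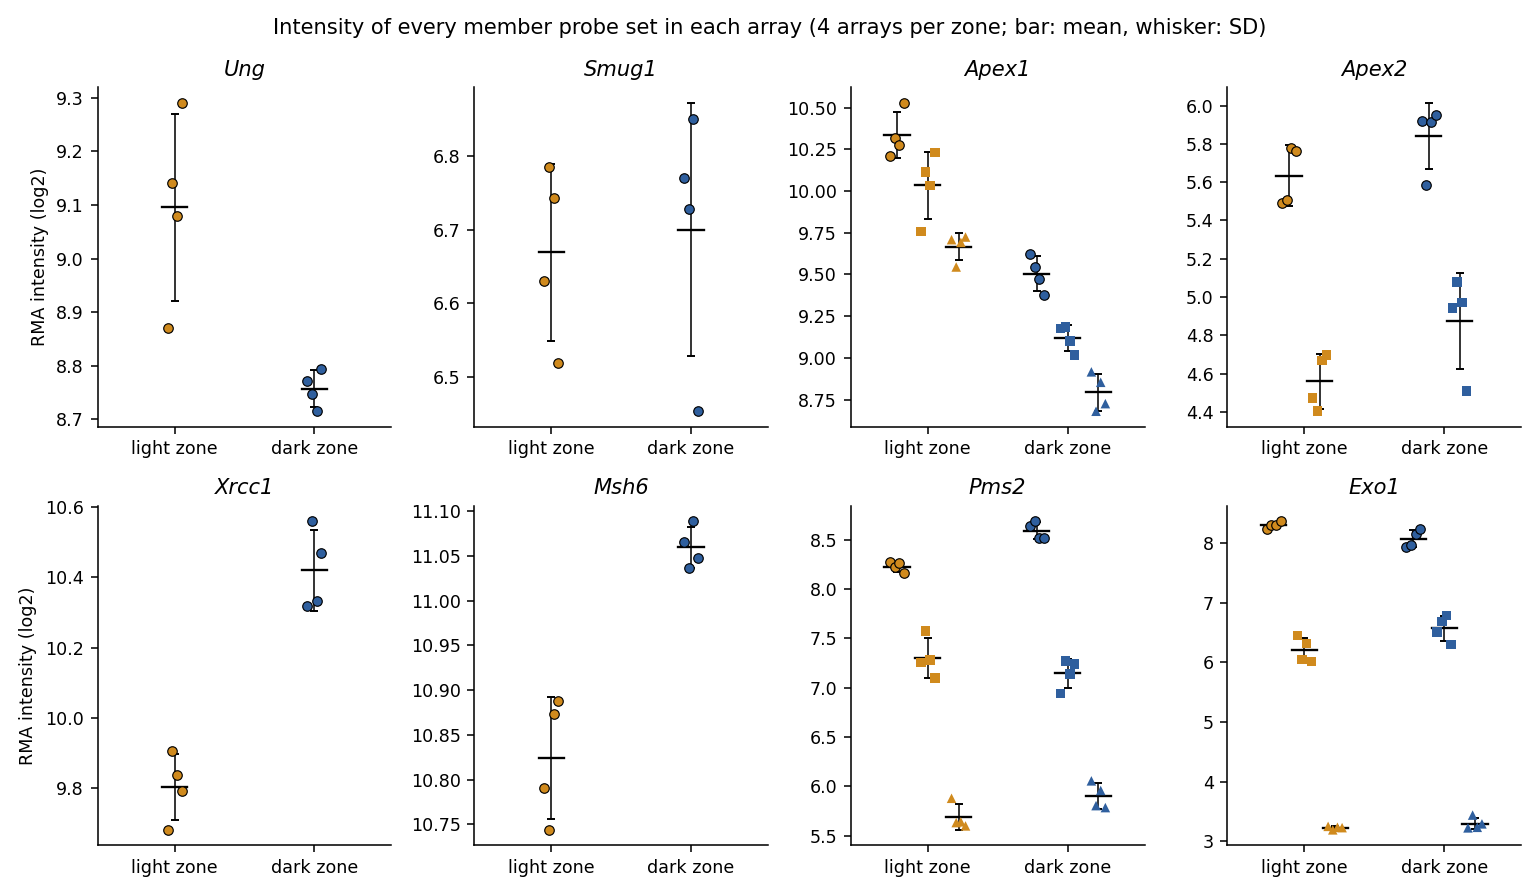
RMA intensity on the log2 scale (y axis, a separate range for each gene) of the 15 member probe sets in the light zone (orange) and dark zone (blue) arrays. Each point is 1 array, bars are means and whiskers the SD of 4 arrays, different symbols are different probe sets, and outlined points mark the probe set that stands for the gene. The 3 Apex1 probe sets are all lower in the dark zone, while those of Exo1 go in different directions.

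Among the uracil glycosylases, Ung was lower in the dark zone and Smug1 did not pass. Ung, the main enzyme that excises uracil from DNA, had intensities of 468, 565, 541 and 626 in light zone replicates 1 to 4 and 437, 429.5, 420.2 and 444 in the dark zone replicates. The light zone arrays were spread widely, with an SD of 65.4, and the dark zone arrays lay close together, with an SD of 10.2. The highest dark zone array was still below the lowest light zone array. The difference was -0.34 (SE 0.08, limma adjusted p = 0.0052), or 1.26-fold. Its only probe set, 1425753_a_at, is of a type that reads several transcripts of the same gene, so nuclear and mitochondrial forms of the enzyme are not separated.

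Smug1, a second uracil glycosylase, had intensities of 99, 110.3, 107 and 91.7 in the light zone and 109, 105.9, 115 and 87.7 in the dark zone. The zones overlapped completely. The difference was 0.03 (SE 0.09, limma adjusted p = 0.81), with a 95% confidence interval from -0.17 to 0.23, so a fall as large as that of Ung lies outside it. The difference between the zone effects of Ung and Smug1 was -0.37 and did not pass (two-sided exact permutation test over 70 arrangements of the arrays, p = 0.0857, adjusted p = 0.129 over 3 pairs).

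Apex1 showed the largest difference of the 8 members. It encodes the main AP endonuclease, which nicks DNA at the abasic site that a glycosylase leaves. Its brightest probe set had intensities of 1184, 1276, 1239 and 1478 in the light zone and 789, 747, 711 and 664 in the dark zone. Every dark zone array was below every light zone array, by a wide gap. The difference was -0.83 (SE 0.08, limma adjusted p = 6.0e-06), or 1.78-fold, and 323 of the 10547 genes tested had a lower value. The brightest probe set, 1437715_x_at, and a second, 1456079_x_at, are of a type that can also bind related sequences. The third, 1416135_at, is not of that type and gave 836, 747, 827 and 846 in the light zone and 483, 410.1, 463 and 423 in the dark zone. Over all 45037 probe sets the differences of the 3 were -0.83, -0.91 and -0.87, with limma adjusted p of 7.2e-06, 9.4e-06 and 1.7e-06.

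The promoter of Apex1 is shown because Apex1 differed most and the window holds several E-boxes, the CACGTG motif bound by MYC and related factors. The RefSeq window, from 250 bases before to 50 bases after a transcript start on build GRCm38.p6, was found for 6 of the 8 members, which leaves Apex2 and Exo1. For Apex1, Xrcc1 and Msh6 that start is the start of the annotated gene. For Ung, Pms2 and Smug1 it lies inside the annotated gene, and their windows are not shown. Capitals mark CACGTG, which reads the same on both strands, or the E2F motif, searched as TTTCCCGC, TTTGGCGC, TTTCGCGC or TTTGCCGC on either strand. Xrcc1 is shown as the member that rose most in the dark zone, and Msh6 for its E2F match. The windows are chr14:50924699-50924998 (plus strand), chr7:24546449-24546748 (plus strand) and chr17:87974800-87975099 (plus strand).
Apex1: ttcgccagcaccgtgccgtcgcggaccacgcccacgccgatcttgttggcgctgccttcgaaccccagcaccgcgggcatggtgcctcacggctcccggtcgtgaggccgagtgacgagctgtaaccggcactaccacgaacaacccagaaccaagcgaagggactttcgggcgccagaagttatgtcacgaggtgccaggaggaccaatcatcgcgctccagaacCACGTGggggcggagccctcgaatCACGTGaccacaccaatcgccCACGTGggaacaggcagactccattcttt
Xrcc1: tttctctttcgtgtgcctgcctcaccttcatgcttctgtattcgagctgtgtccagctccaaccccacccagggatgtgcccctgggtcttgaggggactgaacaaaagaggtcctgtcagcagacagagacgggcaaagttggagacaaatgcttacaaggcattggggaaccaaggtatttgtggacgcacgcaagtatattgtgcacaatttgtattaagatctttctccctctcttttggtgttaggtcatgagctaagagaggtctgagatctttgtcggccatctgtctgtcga
Msh6: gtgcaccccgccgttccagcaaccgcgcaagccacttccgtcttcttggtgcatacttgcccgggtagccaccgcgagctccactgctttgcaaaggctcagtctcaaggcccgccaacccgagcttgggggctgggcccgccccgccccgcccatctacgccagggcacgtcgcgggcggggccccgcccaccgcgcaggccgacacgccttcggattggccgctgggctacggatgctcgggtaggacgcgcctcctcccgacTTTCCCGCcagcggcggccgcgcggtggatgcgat
The Apex1 window holds 3 E-boxes, the first at 24 bases before the start and the others beginning at bases 1 and 22 of the transcript. Of 32851 promoter windows of the same length, 7.15% hold at least 1 E-box and 0.0883% hold at least 3. The Xrcc1 and Msh6 windows hold none. The windows of Smug1, Pms2 and Ung, which was also lower in the dark zone, hold neither an E-box nor an E2F match. The E2F match of Msh6 is TTTCCCGC, which begins at base 16 of the transcript, and 2.26% of all windows hold at least 1 such match. These matches describe the letters in these windows and were searched after the values were known. The motifs overlap nowhere in the windows shown.

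Apex2 did not pass. It encodes a second AP endonuclease with weak nicking activity, and in B cells it has been linked to the mutation process. Its brighter probe set, 1424322_at, had intensities of 44.9, 45.4, 54.9 and 54.3 in the light zone and 60.6, 48, 60.4 and 61.8 in the dark zone. Dark zone replicate 2 fell among the light zone arrays, and the other dark zone arrays were above all of them. The difference was 0.21 (SE 0.10, limma adjusted p = 0.104), with a 95% confidence interval from -0.005 to 0.42. Without dark zone replicate 2 it was 0.30 (limma adjusted p = 0.019), past the threshold. Each dark zone array was above the light zone array of the same replicate number. With that number as a block Apex2 passed (limma adjusted p = 0.040), though the numbers were not taken as pairs. The dimmer probe set, 1425954_a_at, did not reach the mean level of 27.8 needed for the gene test, at 23.7 ± 2.35 (SD, n = 4) and 29.7 ± 4.78 (SD, n = 4), and gave 0.31 (SE 0.11, limma adjusted p = 0.067 over all probe sets).

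The measured differences of Apex1 and Apex2 were of opposite sign, though that of Apex2 did not pass. The zone effect of Apex1 was below that of Apex2 by 1.04, and the within-array log2 ratios of the genes did not overlap between zones. The two-sided exact permutation test gave p = 0.0286, the smallest that 4 against 4 arrays can give. The adjusted p over the 3 pairs compared was 0.0857 and did not pass. With 3 pairs, a pair at this floor cannot pass unless another pair also reaches it. The adjusted p therefore does not reflect the size of this gap.

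Xrcc1 had the largest rise in the dark zone. It encodes the scaffold that holds the ligase, polymerase and end-processing enzymes of single-strand break repair together. Its intensities were 821, 959.5, 914 and 887 in the light zone and 1277, 1509, 1290.2 and 1416 in the dark zone. The lowest dark zone array was above the highest light zone array by a gap larger than the SD of either zone (57.8 and 110.01). The difference was 0.62 (SE 0.07, limma adjusted p = 3.5e-05), or 1.53-fold, and 369 genes tested had a larger rise. It is measured by 1 probe set.

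**Figure D2:**
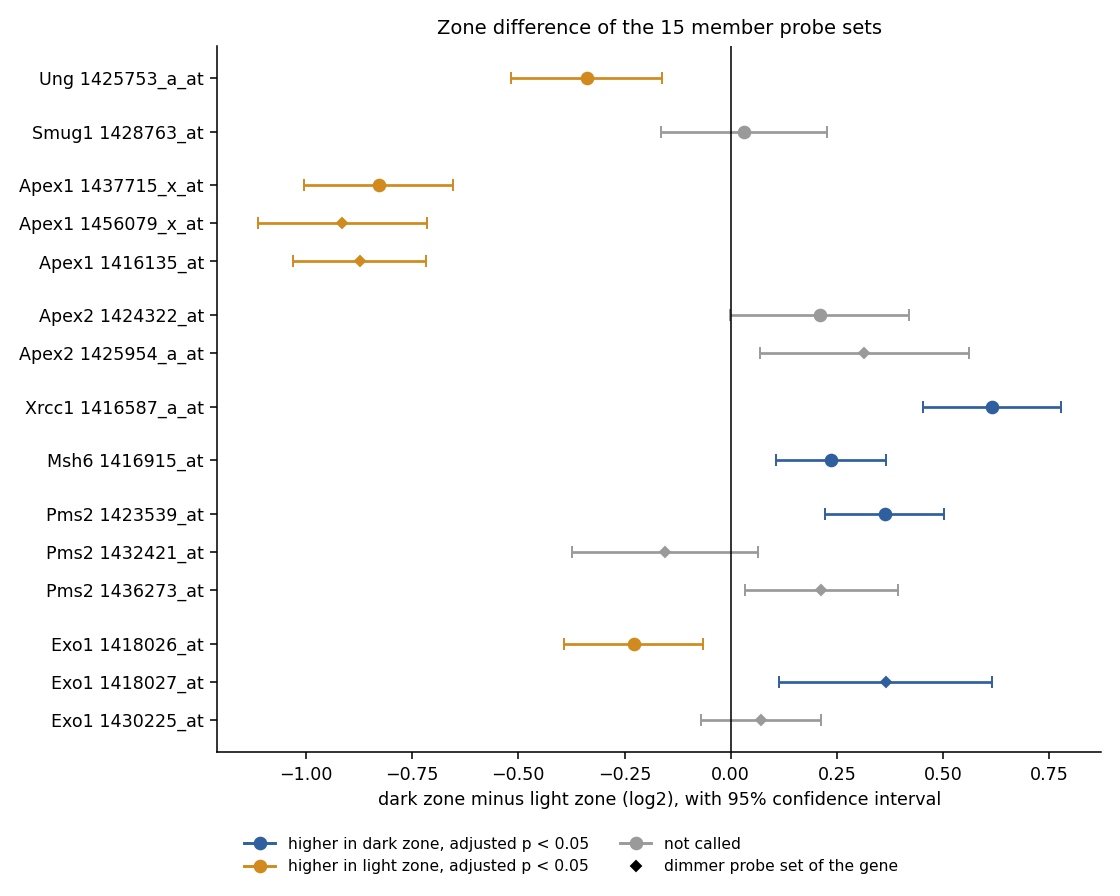
Dark zone minus light zone difference (x axis, log2) with its 95% confidence interval for each of the 15 member probe sets, from the limma fit over all 45037 probe sets. Circles stand for the gene, diamonds are its dimmer probe sets, blue and orange mark an adjusted p under 0.05 and grey marks the rest. The Apex1 intervals lie left of 0 for all 3 probe sets, and the Exo1 probe sets fall on both sides of 0.

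Among the mismatch repair members, Msh6 rose a little in the dark zone, Pms2 passed by its brightest probe set only, and Exo1 had no single direction. Msh6, the part of the MutS complex that recognises single-base mismatches such as U:G, had intensities of 1772, 1715, 1876 and 1894 in the light zone and 2142, 2099.6, 2178 and 2117 in the dark zone. The dark zone arrays were tightly grouped and all above the light zone arrays. The difference was small but larger than the spread, at 0.24 (SE 0.06, limma adjusted p = 0.0056), or 1.18-fold.

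Pms2 encodes the endonuclease subunit of the MutL complex, which nicks the strand after a mismatch is found. Its brightest probe set, 1423539_at, had intensities of 308, 298, 306 and 286 in the light zone and 399, 412, 366 and 366 in the dark zone. All dark zone arrays were higher, and the difference was 0.36 (SE 0.06, limma adjusted p = 5.7e-04). The dimmer probe sets did not pass. The first, 1432421_at, gave -0.16 (SE 0.10, limma adjusted p = 0.335 over all probe sets), and the second, 1436273_at, gave 0.21 (SE 0.08, limma adjusted p = 0.0903). When the 3 were averaged, Pms2 was at 0.14 (limma adjusted p = 0.052) and no longer passed. The rise of Pms2 therefore rests on its brightest probe set. The effects of Msh6 and Pms2 differed by -0.13, which did not pass (two-sided exact permutation p = 0.171, adjusted p = 0.171 over 3 pairs).

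The direction of Exo1, the exonuclease that opens the gap, depended on the probe set. The brightest, 1418026_at, had intensities of 302, 316, 314 and 329 in the light zone and 245, 249, 285 and 299.3 in the dark zone. Those arrays did not overlap, but light zone replicate 1 and dark zone replicate 4 nearly met. The difference was -0.23 (SE 0.07, limma adjusted p = 0.026). The call was lost when replicate 2, 3 or 4 of the light zone, or replicate 1 or 2 of the dark zone, was omitted (limma adjusted p = 0.051 to 0.076). The second probe set, 1418027_at, had intensities of 87.1, 66.2, 79.6 and 64.5 in the light zone and 91.1, 102.5, 110.4 and 78.8 in the dark zone. It went the other way by 0.36 (SE 0.12, limma adjusted p = 0.039 over all probe sets), though dark zone replicate 4 lay within the light zone range. On the log2 scale the brighter exceeded the dimmer by 1.79 to 2.35 in the light zone arrays and by 1.28 to 1.93 in the dark zone arrays. The third probe set was close to the lowest intensities of the arrays, at 9.37 ± 0.16 (SD, n = 4) and 9.85 ± 0.69 (SD, n = 4). No direction for the gene as a whole can be given from these probe sets.

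Over all probe sets of the 8 genes, 9 of 15 passed at a limma adjusted p under 0.05, where 21.8% of all 45037 probe sets passed. No overlap between zones was seen for 8 of 15, where 23.9% of all had none. Those shares include probe sets too dim for the gene test, whereas 13 of the 15 reached its level. Among genes that reached it, 43.9% were called and 41.3% had no overlap. The 9 include every Apex1 probe set and Exo1 probe sets of opposite direction.

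**Figure D3:**
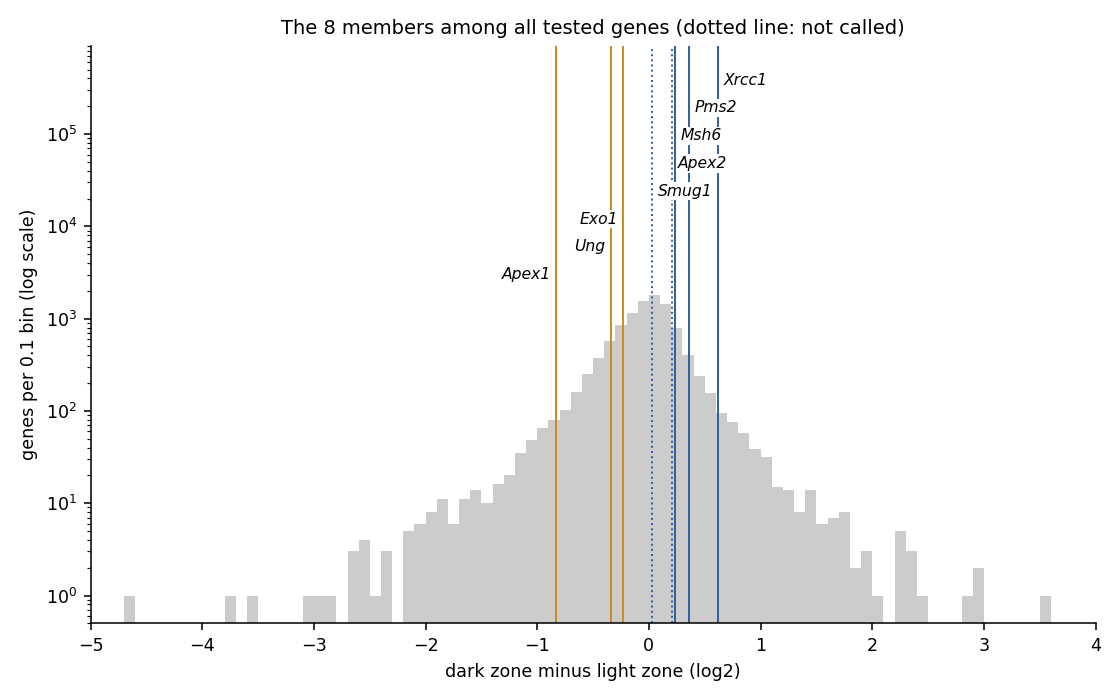
Distribution of the dark zone minus light zone difference (x axis, log2) over the 10547 genes tested (grey bars, genes per bin of 0.1, log y axis), with a line for each member, dotted where it did not pass. Apex1 at -0.83 and Xrcc1 at 0.62 lie towards the edges, and 4.99% and 9.07% of all genes tested had a larger absolute difference.

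The other genes of these pathways were read from lists of textbook members. Beyond the 8, 35 genes of base excision, single-strand break and mismatch repair were tested. They include the 13 replication factors shared with mismatch repair. Of these 35, 11 (31.4%) passed with a rise in the dark zone and 4 (11.4%) with a fall, and the median was 0.06. Over all genes tested, 19.1% rose and 24.8% fell. The counts of each list below stand beside these same shares of all genes. When 1 array was left out at a time, 9 to 10 rose and 4 to 5 fell in the dark zone. Averaging the probe sets of each gene gave 13 that rose and 7 that fell in the dark zone.

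The glycosylases other than Ung and Smug1 included the largest rise of the pathway lists. Neil1, which excises oxidised bases, had intensities of 1631, 1761, 1633 and 1619.7 in the light zone and 3707, 3446, 3419 and 3593 in the dark zone. All dark zone arrays were far above all light zone arrays. The difference was 1.09 (SE 0.06, limma adjusted p = 4.3e-08), or 2.13-fold. Mbd4, which removes thymine or uracil opposite guanine at CpG sites, rose from 1417 ± 196 (SD, n = 4) to 2642 ± 184 (SD, n = 4), a difference of 0.91 (SE 0.09, limma adjusted p = 1.1e-05). A second Mbd4 probe set gave 0.84, and the third gave 0.35 and did not pass. Neil3, a glycosylase linked to crosslink repair during replication, rose by 0.55 (SE 0.08) and its second probe set by 0.50. Mpg, which removes alkylated bases, was at -0.27 (SE 0.06, limma adjusted p = 0.0045), with dimmer probe sets at -0.08 and -0.30 that did not pass. In this list of 11 glycosylases, 9 were tested. In the dark zone 4 rose and 2, Ung and Mpg, fell, with a median of 0.06. The fourth, Nthl1 at 0.24, kept its call without light zone replicate 4 and lost it without each of the other 7 arrays (limma adjusted p up to 0.115).

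Among 15 tested genes of single-strand break repair and gap filling, 4 rose and 3 fell in the dark zone, with a median of 0.07. Beside Xrcc1, the ligase gene Lig1 rose by 0.38 (SE 0.07, limma adjusted p = 6.3e-04) and Tdp1, which clears trapped topoisomerase from DNA ends, by 0.29 (SE 0.07). The call of Parg (0.29), which removes poly(ADP-ribose), was lost when replicate 2 or 4 of the light zone, or replicate 1, 2 or 3 of the dark zone, was omitted. Beside Apex1, Parp3, a break-sensing ADP-ribosyltransferase, was lower in the dark zone by 0.76 on the log2 scale (-0.76, SE 0.06, limma adjusted p = 1.8e-06), with -0.78 and -0.28 from its other probe sets. Aptx, which clears failed ligation products, was at -0.46 (SE 0.09). Several partners of XRCC1 did not pass: Lig3 was at -0.05, Polb at -0.14 and Parp1 at -0.14. The Parp1 probe sets disagreed, with values from -0.48 to 0.43, and a dimmer Polb probe set gave -0.31 (limma adjusted p = 0.0094 over all probe sets). Fen1, the flap endonuclease, was at 0.13 (limma adjusted p = 0.088).

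In mismatch repair, Msh3 had a larger difference than Msh6, Pms2 or Exo1, which was not itself tested. It encodes the MutS subunit for larger loops, and had intensities of 336, 327, 314 and 278 in the light zone and 657, 702, 645 and 564 in the dark zone. The difference was 1.03 (SE 0.08, limma adjusted p = 1.1e-06), or 2.05-fold, and its 3 dimmer probe sets gave 1.16, 0.96 and 1.04. Mlh3 (0.03) and Pms1 (-0.01), which form other MutL complexes, did not pass. Of 6 tested genes in this list, 3 rose and 1, Exo1 by its brightest probe set, was lower in the dark zone, with a median of 0.13. With averaged probe sets 2 rose and 0 fell, with the probe set of largest variance 4 rose and 0 fell, and the call of Exo1 was also lost when any 1 of the 5 arrays given above was omitted.

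Of 13 replication factors that also serve mismatch repair, 3 rose and 1 fell in the dark zone, with a median of 0.06. Rfc1, the large subunit of the clamp loader, rose by 0.66 (SE 0.08), Rpa1, of the single-strand binding complex, by 0.33 (SE 0.06) and Pold1, the catalytic subunit of polymerase delta, by 0.25 (SE 0.06). Pold2, another subunit of that polymerase, was at -0.59 (SE 0.10, limma adjusted p = 6.7e-04). Pcna, the sliding clamp, was at -0.02 (SE 0.05, limma adjusted p = 0.84).

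Genes of cytosine deamination and of the uracil pool included few large changes. Of 10 tested, 4 rose and 1 fell in the dark zone, with a median of 0.20. The 4 include Rpa1, which is also counted among the replication factors above. Apobec1, an RNA and DNA cytidine deaminase, rose by 0.76 (SE 0.07, limma adjusted p = 5.0e-06), Ctnnbl1, which encodes a splicing-associated protein, by 0.37 (SE 0.08), and the elongation factor gene Supt5 by 0.26 (SE 0.07). Dut, which removes dUTP before it can enter DNA, was at 0.08 and Samhd1, which degrades deoxynucleotides, at 0.08, and neither passed. A dimmer Dut probe set gave 0.39 (limma adjusted p = 0.023 over all probe sets), and the 4 dimmer ones of Samhd1 lay between -0.58 and -0.11. The thymidylate synthase gene Tyms was at -0.45 (SE 0.07), with 3 dimmer probe sets between -0.03 and 0.13. Its brightest probe set was itself dim, at 5.65 and 5.19 on the log2 scale in light and dark zone arrays. With a filter at the 75th percentile, 5 of 8 tested genes of this list rose and 0 fell in the dark zone.

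**Figure D4:**
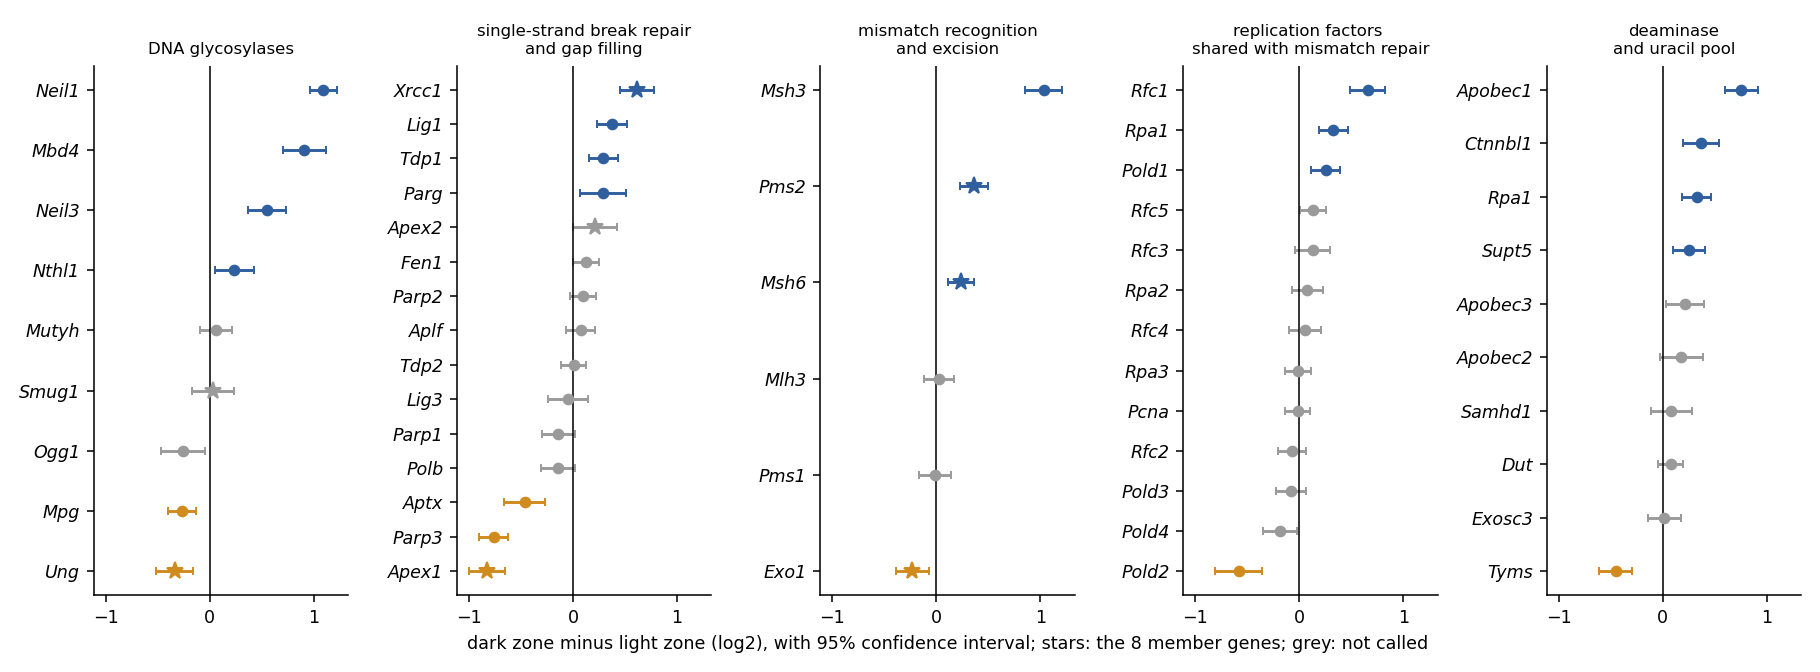
Dark zone minus light zone difference (x axis, log2) with its 95% confidence interval for every tested gene of 5 pathway lists, 1 panel per list. Stars are the 8 members, blue and orange mark genes called higher in the dark or light zone, and grey marks genes not called. Neil1, Mbd4 and Msh3 lie near 1, beyond every member.

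The zones also differ in cell cycle and growth genes. All 19 tested G2/M genes were higher in the dark zone, with a median of 1.16. Of 18 G1/S genes, 6 rose and 1 fell in the dark zone, with a median of 0.09. Of 16 genes associated with MYC, 15 fell and none rose there, with a median of -0.43. Their part in the differences of the members was not tested.

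The genes most like each called member were taken as the 3 with the highest Pearson correlation of log2 values over the 8 arrays. All 8 arrays share the zone split, so these values mostly record that split and describe it only. Apex1 was most like Chchd4, Scand1 and Ndufa3 (r = 0.997, 0.996 and 0.996). Xrcc1 was most like Psmc1, Pkp4 and Cpsf2 (0.988, 0.987 and 0.986). Pms2 was most like Snrnp70, Acsl5 and Naa15 (0.996, 0.994 and 0.993), and Msh6 most like Cox6a1, Hyls1 and Mettl7a2 (0.985, 0.984 and 0.983). Ung was most like Zmym3, Tfeb and Gfer (0.980, 0.978 and 0.971), and Exo1 most like Mfsd11, Sik2 and Spag7 (0.983, 0.983 and 0.980).

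**Figure D5:**
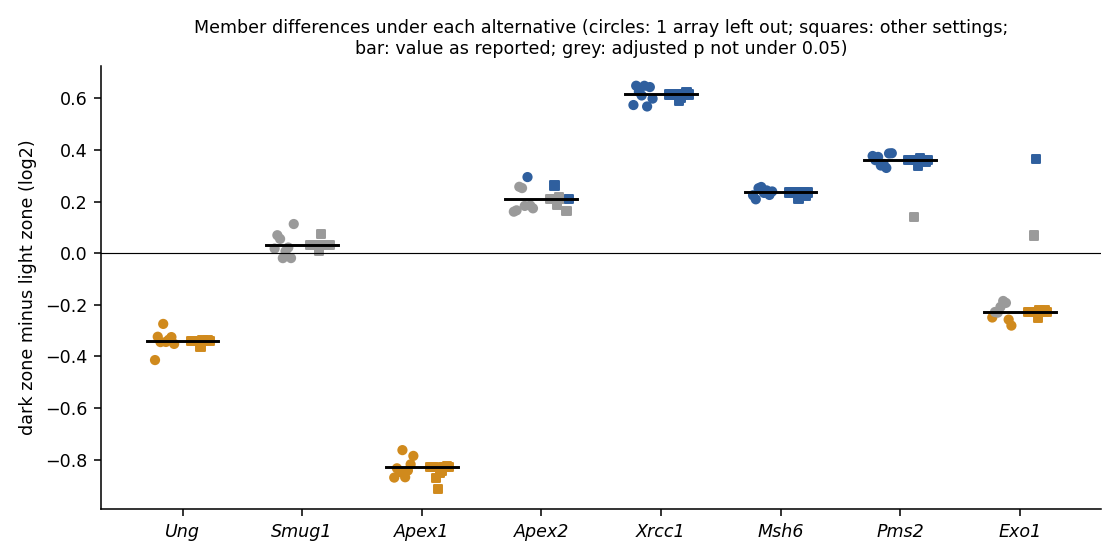
Dark zone minus light zone difference (y axis, log2) of each member under every alternative. Circles leave out 1 array, squares change another setting, black bars are the values reported above, and grey points have an adjusted p that is not under 0.05. Apex1, Ung, Xrcc1 and Msh6 stayed on 1 side of 0 and passed throughout, while Exo1 lies on both sides.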

How the data were processed

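Values were the authors' deposited RMA intensities on a linear scale, for 45037 probe sets on 8 arrays. RMA is given with no version in the submitters' processing notes. It corrects background, equalises the distributions of the arrays and summarises probes. Labelling used Affymetrix's IVT Express reagents for transcript ends, per the labels. Such normalization hides changes in total RNA per cell and can compress folds of dim genes. The log2 of each deposited intensity was taken, with no pseudocount, since 0 values were at or below 0.

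The platform annotation named the probe sets that carry 1 symbol (34945; 932 carry several, 9160 are unnamed here). Each of 18193 genes was represented by its brightest probe set and tested if its mean log2 value reached the 50th percentile of all probe sets (intensity 27.8), which left 10547. Zones were compared with limma 3.58.1 (R 4.3.3, default lmFit and eBayes, two-sided, Benjamini-Hochberg adjusted p under 0.05 over all genes tested). A second fit covered all probe sets without a filter. Exact permutation tests compared 3 pairs of members. The fit of dark zone against light zone was also run on simulated data for the 10547 genes, with known log2 differences put in. At a difference of 0.25, it found 25.4% of 67 genes. At 0.5 the share found was 86.6% of 67, and at 1 it was 100% of 66. Among the 152 genes called there, 7.24% had no true difference. The real data gave 4629 calls, so the Benjamini-Hochberg cutoff was less strict there than in the simulation. The simulated shares therefore cannot give the share of real differences of these sizes that was missed.

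Genes named are the 8 members, up to 4 genes with the largest called difference without overlap in each pathway list, genes fixed by name, the gate genes and the 3 genes most like each called member. Tdp1, Mpg, Nthl1, Parg, Supt5 and the cell markers given with values were added after their values were seen. The members and lists were chosen with earlier results of these data known. Some genes of these pathways are not reported here. Figures were drawn with matplotlib 3.10.9.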

Additional observations from a re-analysis of the deposited data

Results flagged for a closer look

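In 30 groups of 4 arrays, made from the 15 probe sets of the members, 2 held an array far from the other 3, and chance flags about 1 in 20 groups. In the Apex2 probe set 1424322_at, dark zone replicate 2 was at 48 against 60.4 for the next dark zone array, a gap of 0.911 of the whole range of the group on the log2 scale. In the dimmer Pms2 probe set 1436273_at, light zone replicate 1 was at 58.9 against 49.9 for the next light zone array, a gap of 0.853 of the range.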

How the results depend on the processing

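Apex1, Ung, Xrcc1 and Msh6 kept their direction and their call under all 19 alternatives. Ung, Xrcc1 and Msh6 have 1 probe set each, so averaging or choosing among probe sets could not alter their differences. Nor could a filter on dim genes. With 1 array left out at a time, Apex1 ranged from -0.87 to -0.76, Ung from -0.41 to -0.27, Xrcc1 from 0.57 to 0.65, Msh6 from 0.21 to 0.26, Pms2 from 0.33 to 0.39, Exo1 from -0.28 to -0.19, Apex2 from 0.16 to 0.30 and Smug1 from -0.02 to 0.11. Smug1, not called, changed sign with replicate 4 of the light zone (-0.019) or replicate 3 of the dark zone (-0.019) omitted. Exo1 turned to 0.069 with averaged probe sets and to 0.36 with the probe set of largest variance, by construction, since other probe sets enter. With averaged probe sets Pms2 lost its call (0.14), Apex2 gained one (0.26), the effect of Msh6 minus that of Pms2 turned to 0.10, and of the other pathway genes 13 rose and 7 fell in the dark zone. A filter at the 75th percentile leaves out Smug1 and Apex2, and the Apex2 probe set of largest variance is too dim to test. At an adjusted p under 0.01, 1316 genes in all were higher in the dark zone, against 2015.

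The deviations of same-numbered samples correlated at 0.13, 0.19, 0.06 and 0.24, and those of samples with different numbers at 0.091 or below. Pairing required every value to exceed 0.1, so the numbers were not taken as pairs. With the replicate number as a block, 4787 genes were called against 4629, and Apex2 passed (0.21, limma adjusted p = 0.040). In light zone arrays each correlated best with its own number, but dark zone replicate 3 did not. With 1 array left out, the permutation test cannot go below 0.0571. The dimmer Apex2 and the third Exo1 probe sets lie below the 50th percentile of all probe sets.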
